A study of Mus musculus with 7 samples.

Results

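The clustered protocadherin genes were examined with CTCF ChIP-exo 5.0 in mouse tissues. The members were all peaks with centres between positions 36900000 and 37900000 of chromosome 18 (mm10), together with the peak pairs and annotated gene starts there. Over 7 libraries, 1480 of 2603994 deposited peaks lay in this stretch of 1 Mb. RefSeq places 58 clustered protocadherin genes in it, 14 of the alpha group, 22 of the beta group and 22 of the gamma group.

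Each library came from wildtype mice. Brain, lung, kidney and liver of male mice aged 16 weeks were each processed at 100 mg. A further 3 libraries were labelled as liver of 2,700,000, 270,000 and 27,000 cells. The paper estimated liver cell numbers from the wet weight of tissue. Each condition had 1 library, so differences between libraries cannot be checked against replicates, and p-values are left out. Organs hold mixed cell types, so fewer bound cells and less binding per cell cannot be told apart. The labels name a CTCF antibody for every library, although their extraction text names IgG. Peaks of CTCF cannot check which tissue a library came from.

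Clustered protocadherins are cadherin-like surface proteins, of which each neuron uses a small and varied subset, and they are known for self-recognition of neurites. In the alpha and gamma groups each gene has its own promoter and variable first exon, which is spliced to shared constant exons, whereas each beta gene is a single coding exon. CTCF is a zinc finger protein that, with cohesin, joins these promoters to distant enhancers. It is known to bind a conserved element of most of the promoters and also sites within the alpha first exons, and DNA methylation is known to hinder its binding. The promoters of Pcdhac2, Pcdhb1, Pcdhgc4 and Pcdhgc5 are known to lack the conserved element.

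Brain had 539 tags in the stretch, lung 351, kidney 474 and liver 137, where a tag is a sequenced fragment whose end marks an exonuclease stop. The stretch held 4372 tags with 2,700,000 liver cells, 227 with 270,000 and 4 with 27,000. The library of 27,000 cells thus had a single peak here, in the gene Diaph1 downstream of the gamma group. The libraries held 35594 to 6592538 tags in all, and no peak under 2 tags was listed. Values were then scaled to 1,000,000 tags of each library. So scaled, brain had 522 tags in the stretch (95% exact interval 479 to 568), lung 508 (456 to 564), kidney 290 (264 to 317) and liver 259.9 (218 to 307). The library of 2,700,000 liver cells had 663 (644 to 683) and that of 270,000 cells 354 (310 to 404). All intervals in the text cover counting error only, and those of tags take each tag as an independent count. Those of shares take each site, gene start or pair as independent, although neighbours in the same library need not be. Brain and lung had overlapping intervals, as had kidney and liver.

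The tags of a peak started at more than 1 position in 23.5% of these peaks of brain, 25.8% of those of lung, 8.16% for kidney and 14.9% for liver. Of the peaks with 2,700,000 cells 81.9% were of this kind, and with 270,000 cells 28.9%. The same shares over whole libraries were 16.8%, 16.9%, 8.53%, 23.7%, 66.9% and 24.0%. Peaks whose tags all started at 1 position therefore made up most of the organ signal in the stretch. Their part in the results below was measured by leaving them out.

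Signal was set by group within each library. The alpha group spans 36930285 to 37188897, the beta group 37264998 to 37521419 and the gamma group 37661775 to 37841873. In the library of 2,700,000 liver cells they held 1061, 1163 and 1053 tags, or 410, 454 and 585 tags per 100 kb. In brain the densities were 38.7, 37.8 and 79.96 tags per 100 kb, for lung 20.9, 25.3 and 58.3, for kidney 41.8, 32.8 and 67.7, and for liver 11.6, 6.24 and 27.2. The gamma group was thus the densest of the 3 in each of these libraries. The 58.1 kb downstream of it, which lie mostly in Diaph1, were denser still in brain, lung and kidney, with 208, 172 and 104.9 tags per 100 kb. They were also denser with 2,700,000 liver cells, with 1342. In the liver organ library the gamma and downstream densities were close, with 27.5 downstream. With 270,000 cells the alpha group held 12.8, the beta group 17.5 and the gamma group 38.9 tags per 100 kb, and 65.4 lay downstream. Counted per gene start, in windows described below, the order with 2,700,000 cells was the reverse. The medians were 79 tags in the alpha, 41.5 in the beta and 24.5 in the gamma group. In brain these medians were 0, 2 and 3.

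Sites were defined in the library of 2,700,000 liver cells as pairs of opposite peaks, the reverse one lying 10 to 80 bp after the forward one, with at least 10 tags in the pair and at least 200 bp between sites. Of 36032 such sites in the genome, 47 lay in the stretch. A site was detected in another library when its 200 bp held at least 2 tags. The tags of 2,700,000 cells chose the sites, so they are given as a description. The organs and the library of 270,000 cells played no part in the choice. Places with few tags in liver cells could not enter the list, even where another organ held tags. Counts at sites therefore cover only places with signal in liver cells. The forward and reverse stops of a site were 49 bp apart at the median here and 44 bp over all sites.

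**Figure D1:**
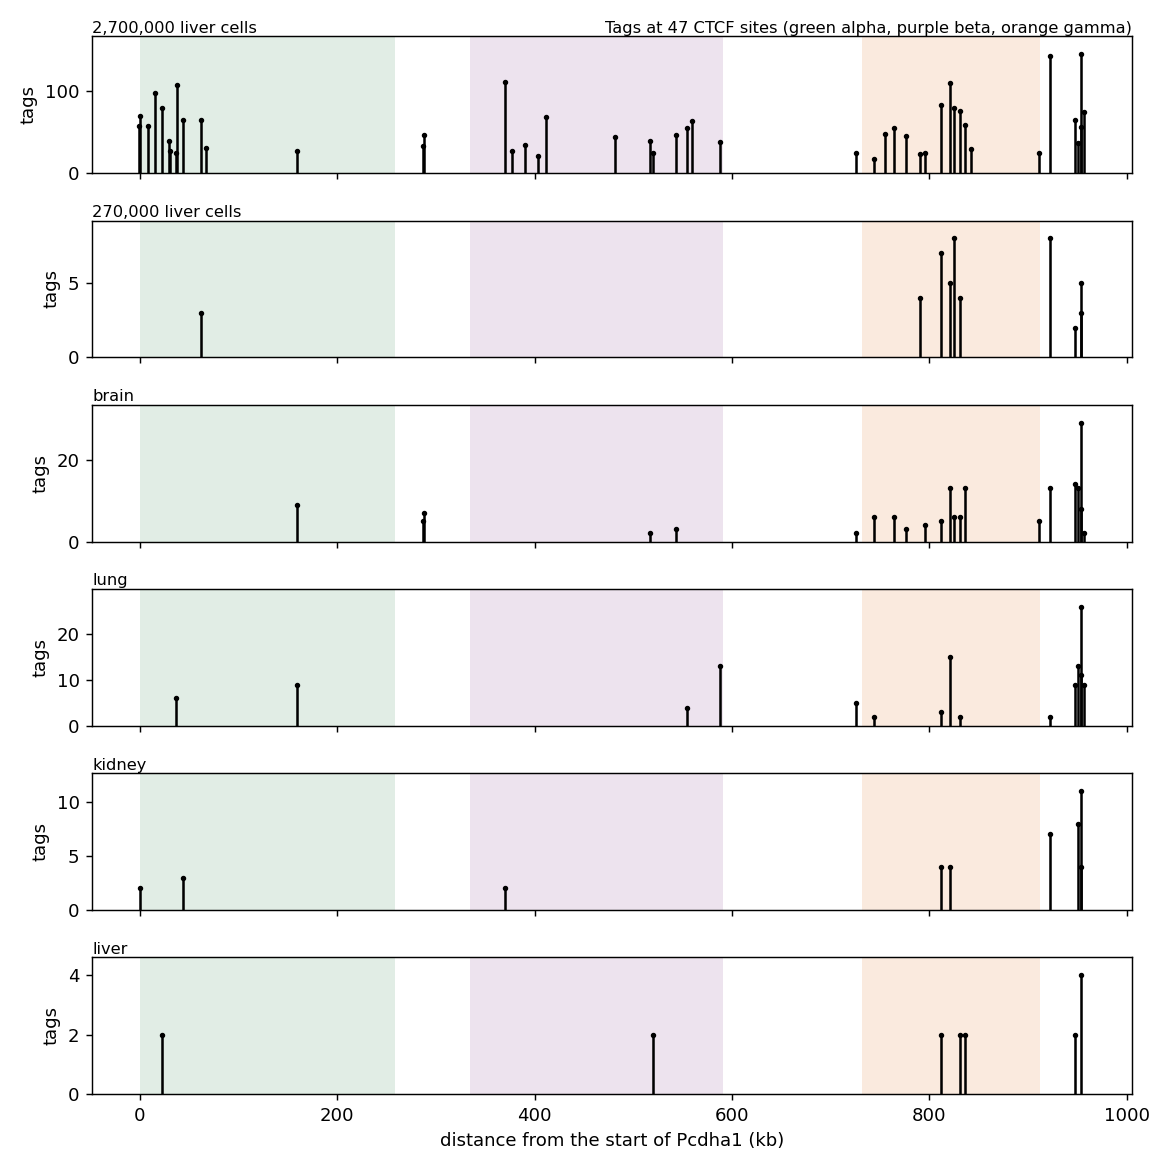
Tags in 200 bp (y axis, 1 scale per library) at each of the 47 sites against the distance from the start of Pcdha1 in kb (x axis), with 1 panel per library and 1 stem per site. The 12 alpha and 12 beta sites carry 21 to 111 tags with 2,700,000 liver cells and mostly none in the other libraries, whereas the sites of the gamma group and downstream of it carry tags in several organs.

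Nearly each gene of the clusters held at least 2 tags near its start in the library of 2,700,000 liver cells, a level that most other genes also reached. In the window from 500 bp before to 2500 bp after the start, 57 of 58 genes held tags, against 75.5% of 17492 other protein-coding genes. At least 20 tags lay at 40 of the 58, which were 10 alpha, 16 beta and 14 gamma genes, against 13.5% of the other genes. This level was set after the values were seen. Windows are of equal length, so that genes can be compared, and no window of one clustered gene reached that of the next.

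The alpha genes fell into separate stretches. The 9 genes from Pcdha1 to Pcdha9 held 44 to 186 tags, while Pcdha10, Pcdha11 and Pcdha12 held 4, 9 and 4. The highest were Pcdha6 with 186, Pcdha1 with 154, Pcdha3 with 133, Pcdha4 with 101 and Pcdha5 with 96 tags. All of these encode alternative extracellular domains of the alpha proteins. In the same windows no other library held more than 6 tags at any gene from Pcdha1 to Pcdha9. Brain held 2 at Pcdha5 and 4 at Pcdha8, lung 6 at Pcdha2 and 6 at Pcdha6, and the library of 270,000 cells 3 at Pcdha8 and 3 at Pcdha9.

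The beta genes with most tags were Pcdhb3 with 165, Pcdhb10 with 102, Pcdhb7 and Pcdhb17 with 89 each, and Pcdhb14 with 84. Brain held 2 tags at the start of Pcdhb10 and 2 at Pcdhb14 and none at the other 3. The 270,000 cells gave 8 tags at Pcdhb14 and none at the other 4. In the gamma group Pcdhgb7 held 148 tags, Pcdhga11 109, Pcdhgb6 103, Pcdhgb8 94 and Pcdhga4 81. In that order these genes held 15, 6, 9, 9 and 3 tags in brain, and 9, 11, 7, 6 and 3 with 270,000 cells.

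The promoters known to lack the conserved element were among the lowest. In the largest library Pcdhac2 held 4 tags, Pcdhb1 2, Pcdhgc4 none and Pcdhgc5 2. In all, 10 of the 58 starts held under 5 tags, against 10288 of 17492 other genes. The other 6 of these clustered starts were Pcdha10, Pcdha12, Pcdhb19, Pcdhga2, Pcdhga7 and Pcdhga9. The c-type genes, which are the last variable genes of the alpha and gamma groups, were thus uneven. Pcdhac1 held 46 tags and Pcdhgc3 24. Pcdhac1 held 13 tags in brain, 9 in lung, none in kidney and 2 in liver. Pcdhgc3 held 10 in lung, 4 in kidney, 6 in liver and none in brain. Pcdhac2 held 3 tags in brain and 8 in kidney, and Pcdhgc4 and Pcdhgc5 held none in any organ.

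**Figure D2:**
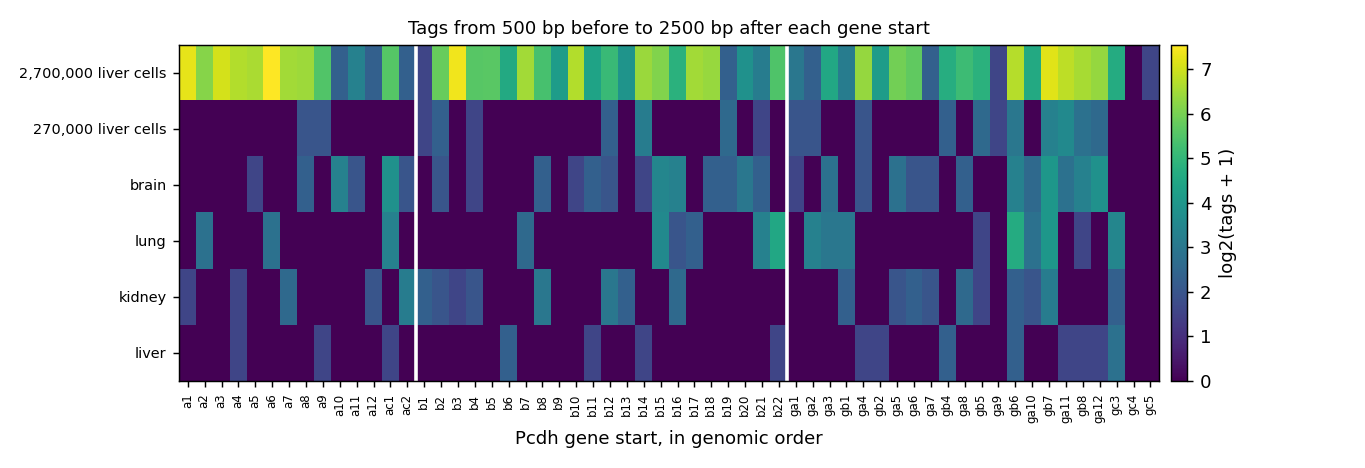
Tags from 500 bp before to 2500 bp after each of the 58 gene starts in genomic order (x axis), by library (y axis), shown as log2(tags + 1), with white lines between the alpha, beta and gamma groups. The row of 2,700,000 liver cells is bright at Pcdha1 to Pcdha9, most beta genes and much of the gamma group, and the rows of the other libraries are dark over Pcdha1 to Pcdha9.

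The position of the signal differed between the groups. Among the 47 sites, 28 lay from 250 bp before to 50 bp after a gene start, 7 lay 300 to 900 bp after one, and 12 lay elsewhere. These limits were drawn after the positions were seen, and the annotation used gives starts and ends of genes but no exons. The second kind comprised 6 alpha sites and 1 gamma site. Summed over genes with 2,700,000 cells, the alpha group held 399 tags at the start itself and 528 tags 300 to 900 bp after it. The beta group held 794 and 8 tags at these places and the gamma group 741 and 58. The alpha group therefore had its stops in 2 bands, and the beta and gamma groups mainly in 1.

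**Figure D3:**
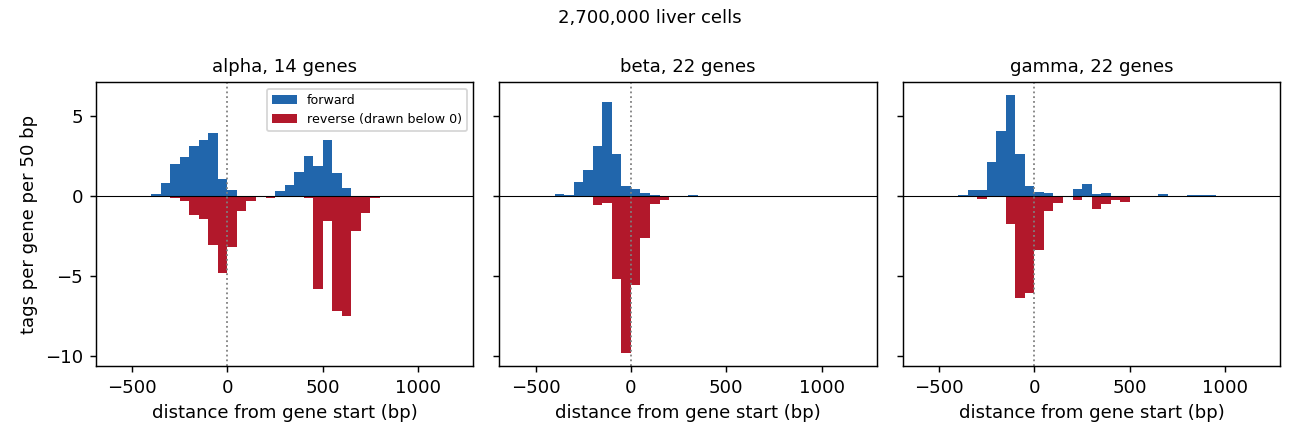
Tags per gene (y axis, bins of 50 bp) plotted by distance from the gene start (x axis, bp) for the library of 2,700,000 liver cells, with forward stops as blue bars upwards and reverse stops as red bars downwards. Each band has forward stops to the left of the reverse stops, and only the alpha panel has a second band of like height, about 300 to 900 bp after the start.

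The alpha site with most tags lay at chr18:36968098-36968297, 573 bp after the start of Pcdha6. It held 107 tags with 2,700,000 cells and none in any of the other 6 libraries. The site at chr18:36945911-36946110, 77 bp before the start of Pcdha3, held 98 tags and none elsewhere. The next alpha sites lay 518, 462 and 568 bp after a gene start, namely chr18:36953107-36953306 in Pcdha4 with 79 tags, chr18:36930647-36930846 in Pcdha1 with 70, and chr18:36974279-36974478 in Pcdha7 with 65. Liver held 2 tags at the first of these, kidney 2 at the second and 3 at the last, and brain and lung none. The site in Pcdha8 at chr18:36992819-36993018 also held 65 tags, and 3 with 270,000 cells. It was the only alpha site with tags in that library.

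The beta sites with most tags lay close before the starts of their genes. At Pcdhb3 the site chr18:37300662-37300861 held 111 tags, at Pcdhb7 chr18:37341549-37341748 held 68, at Pcdhb18 chr18:37489297-37489496 held 63, at Pcdhb17 chr18:37484813-37485012 held 55 and at Pcdhb15 chr18:37473339-37473538 held 47. Of these, brain held 3 tags at the last, lung 4 at the site of Pcdhb17 and kidney 2 at that of Pcdhb3. Lung held 13 tags at the site of Pcdhb22, which held 38 with 2,700,000 cells. None of the 12 beta sites had tags with 270,000 or 27,000 cells.

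Brain held tags at most of the gamma sites. The site chr18:37751430-37751629, 89 bp before the start of Pcdhgb7, held 110 tags with 2,700,000 cells, 5 with 270,000, 13 in brain, 15 in lung, 4 in kidney and none in liver. The site before Pcdhgb6, chr18:37741909-37742108, held 83 and 7 tags with these cell numbers, and 5, 3, 4 and 2 in brain, lung, kidney and liver. It was the only site at a gene start with tags in all 4 organs. The sites before Pcdhga11 and Pcdhgb8 held 79 and 76 tags, and 6 each in brain. The site after the start of Pcdhga12 held 59 tags, and 13 in brain, none in lung or kidney and 2 in liver.

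Outside the gene groups 10 sites were found. Between the alpha and beta groups lay a pair of sites at chr18:37217384-37217583 and chr18:37218346-37218545, with 33 and 47 tags with 2,700,000 cells. Brain held 5 and 7 tags there, and the other organs and the libraries of fewer cells held none. An enhancer with a pair of CTCF sites is known downstream of the alpha genes, but its coordinates were not used here. Just before Pcdha1, chr18:36929971-36930170 held 57 tags and none in any other library. Between the beta and gamma groups, chr18:37655475-37655674 held 24 tags, 2 in brain and 5 in lung.

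Downstream of the gamma group, 6 sites lay within Diaph1, which encodes a formin that assembles actin, in a stretch beside known distal enhancers of the clusters. The site chr18:37883510-37883709 held 145 tags with 2,700,000 cells, 5 with 270,000, 29 in brain, 11 each in lung and kidney, and 4 in liver. The next, chr18:37852176-37852375, held 143 and 8 tags, and 13, 2, 7 and 0 in the organs. The others were chr18:37887073-37887272 with 74 tags, chr18:37877433-37877632 with 65, chr18:37883757-37883956 with 56 and chr18:37880288-37880487 with 37. Lung held 9, 9, 26 and 13 tags at these and brain 2, 14, 8 and 13. Brain and lung thus held tags at all 6 sites, whereas kidney held them at 4 and liver at 2.

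Detection in the organs was counted against all sites of the genome. Brain had tags at 22 of the 47 sites, or 46.8% (Wilson interval 33.3 to 60.8), where 52.3% of all sites were detected. Lung had tags at 15 (background 41.6%), kidney at 9 (36.3%) and liver at 7 (22%). The library of 270,000 cells had tags at 10 (41.3%) and that of 27,000 cells at none (1.48%). The intervals of brain, lung and liver include their backgrounds, and those of kidney (10.4 to 32.5) and of 270,000 cells (11.99 to 34.9) lie below them. After the windows were moved by 5 kb, brain and kidney had tags at 3 of the 47, liver at 2, and lung and the library of 270,000 cells at 1 each.

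The 24 alpha and beta sites were mostly without tags outside the largest library. Brain and kidney each detected 3 of them (12.5%, interval 4.34 to 31.0), lung 4 (16.7%, 6.68 to 35.8), liver 2 (8.33%, 2.32 to 25.8) and the library of 270,000 cells 1 (4.17%, 0.739 to 20.2). In liver the interval includes the share of all sites, and in the other libraries it lies below that share. In the gamma group brain detected 10 of 13 sites (76.9%, 49.7 to 91.8), an interval that includes the share of all sites. Lung detected 4 of them, kidney 2, liver 3 and the library of 270,000 cells 5. Downstream of the gamma group the counts were 6, 6, 4, 2 and 4 of 6 sites. With the windows of the 24 alpha and beta sites moved by 5 kb, brain had tags at 2 and kidney and liver at 1 each. Lung and the library of 270,000 cells then had tags at none, so the few detections in brain, kidney and liver lie near this floor.

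Detection rises with the tags of a site, so the sites were also read by their tags with 2,700,000 cells. Weighted by the classes of 10 to 30, 30 to 50, 50 to 80 and 80 to 120 tags that hold the 24 alpha and beta sites, all sites of the genome gave 42.5% for brain, 32.9% for lung, 28.6% for kidney, 15.8% for liver and 28.3% for 270,000 cells. The intervals of the alpha and beta sites lay below these values for brain and 270,000 cells and included them for lung, kidney and liver. For the 17 sites of the gamma group and downstream in these classes, the same weighting gave 43.6%, 33.9%, 29.3%, 16.3% and 29.2%. Brain detected 14 of the 17 (82.4%, 58.97 to 93.8), above its weighted share. Lung detected 8 (47.1%), kidney and liver 4 each (23.5%) and the library of 270,000 cells 7 (41.2%), with intervals that include theirs. The planned comparison kept the groups apart, and these joined sets were not part of it. For the 13 gamma sites alone the interval of brain included the share of all sites, and brain had tags at each downstream site. Without peaks of 1 position, brain and the library of 270,000 cells each detected 1 of the 24 alpha and beta sites, and lung, kidney and liver none. Of the 13 gamma sites brain then detected 7, lung and liver 1 each, kidney none and the library of 270,000 cells 4. Over all sites of the genome these shares were 38.4% for brain, 20.7% for lung, 16.4% for kidney, 15.3% for liver and 30.7% for 270,000 cells.

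**Figure D4:**
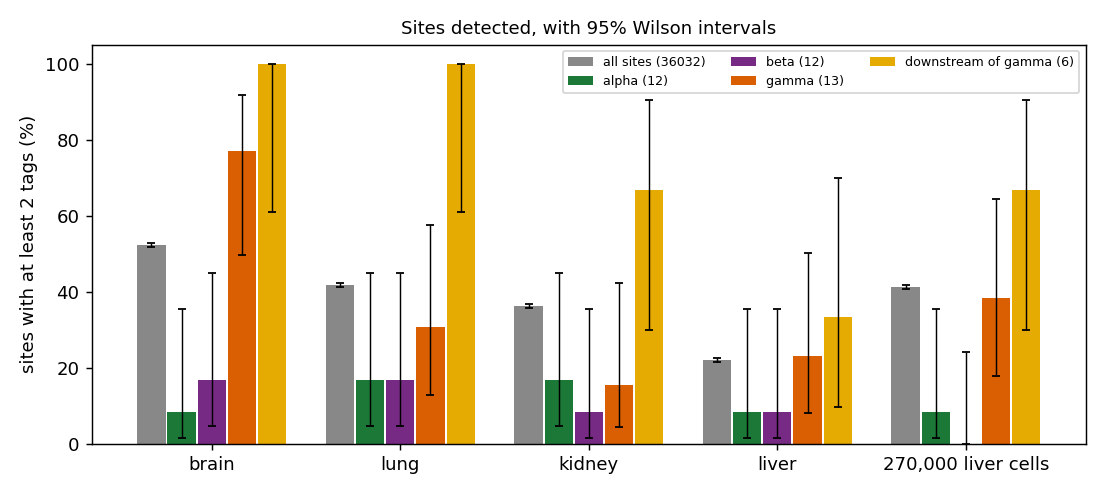
Share of sites with at least 2 tags (y axis, percent) in 5 libraries (x axis), for all 36032 sites of the genome and for the alpha, beta, gamma and downstream sites, with 95% Wilson intervals as error bars. The alpha and beta bars are at or below 16.7% in each library, under the grey bar of all sites, and the bars of the 6 downstream sites stand above it.

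The libraries of 2,700,000 and 270,000 liver cells are set side by side as a description, since the tags of the first chose the sites. The libraries held 6592538 and 640635 tags in all, and the ratios at sites are of unscaled tags, so they include this difference in depth. At all 36032 sites they held 3094537 and 92276 tags, a ratio of 33.5. The gamma sites held 674 and 28 tags, a ratio of 24.1, and the downstream sites 520 and 18, a ratio of 28.9. The alpha and beta sites held 1263 and 3, and the 3 tags lay at 1 site. The site before Pcdha1 held 57 and 0, the sites between the alpha and beta groups 80 and 0, and the site between the beta and gamma groups 24 and 0. Single tags are not listed, so the true count of the smaller library can be higher. Over 2612 windows of 1 Mb in the genome, the ratio of scaled tags between these libraries had a median of 1.08 and was 1.87 in the protocadherin stretch, higher than in 94.8% of the windows. The number of cells and the library cannot be told apart.

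Brain was then set against the other organs. Over the stretch brain held 1.48 times the mean scaled tags of lung, kidney and liver. The ratio was 1.03 (0.897 to 1.18) to lung, 1.80 (1.59 to 2.04) to kidney and 2.01 (1.66 to 2.44) to liver. Over the 2612 windows the median of the ratio to the mean was 1.04, and 98.0% of the windows had a lower value than this stretch. Brain therefore exceeded kidney and liver in scaled tags. The intervals take tags as independent counts. Tags were listed in peaks of at least 2, so the intervals can be too narrow. By peaks in place of tags, scaled to all peaks of each library, brain had 552, kidney 338 and liver 357. Brain thus again exceeded both, but how far this lies beyond counting error was not tested. Against lung the order depended on the scaling: the ratio was 1.36 (1.08 to 1.73) for tags at sites over all tags at sites and 0.672 (0.513 to 0.883) without peaks of 1 position. The ratio to the mean was 1.45 in the alpha group, 1.60 in the beta group, 1.31 in the gamma group and 1.66 downstream. Counted at the sites alone, it was 0.916 in the alpha group, 0.491 in the beta group and 4.05 in the gamma group, so that the order of the groups depends on whether tags away from the sites are counted. The alpha and beta values rest on 9 and 5 brain tags, and the sites were chosen in liver cells.

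By site, 16 of the 47 were at least 2-fold higher in brain than the mean of the other organs, against 27.8% of all sites, and 9 were at least 2-fold lower, against 21.8%. At 17 sites, or 36.2%, no organ held tags, against 30.6% of all sites. The higher ones were 8 of the 13 gamma sites, 3 of the 6 downstream sites, both sites between the alpha and beta groups, 1 alpha site and 2 beta sites. The lower ones were 4 alpha sites, 4 beta sites and 1 site downstream. A call could rest on 2 tags against none listed, as for the site of Pcdhb14 (higher) and that of Pcdhb3 (lower). Among sites with at least 10 tags in brain, the ratio was highest at that of Pcdhga12 with 9.95, followed by 3 in Diaph1, with 5.27, 2.79 and 2.42. The remaining 2 such sites, in Diaph1 and before Pcdhgb7, had ratios of 1.59 and 1.56. This filter used the same brain tags as the ratio, which favours high ratios, so the ranking is a description only. The value of 9.95 rests on 13 tags in brain against 2 in liver and none in lung or kidney.

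By gene start, brain had tags at 32 of the 58 (background 40.4%), lung at 18 (24.9%), kidney at 23 (49%) and liver at 15 (23.9%). With 270,000 cells 20 starts held tags (27.8%) and with 27,000 cells none (1.56%). The share in brain was 55.2% (42.4 to 67.2), above its background. At least 2-fold higher in brain were 24 of the 58, or 41.4%, against 23.4% of the other genes. Of these, 5 were alpha, 10 beta and 9 gamma genes. At least 2-fold lower were 20 of the 58, against 38.6% of the other genes. Here too a call could rest on 2 tags against none listed. Pcdha5, Pcdhb10 and Pcdhga1 were so called higher, and Pcdha1 lower. These calls were not repeated without peaks of 1 position. Without peaks of 1 position brain had tags at 9 of the 58 starts (background 10.2%), lung at 4 (6.13%), kidney at none (6.52%), liver at 4 (6.87%) and the library of 270,000 cells at 6 (7.08%). The share in brain was then 15.5% (8.38 to 26.9), an interval that includes its background.

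Gene starts were also ranked by raw tags summed over the 4 organs, so that deeper libraries weigh more. In the alpha group Pcdhac1 led, with values given above, followed by Pcdhac2, Pcdha10 with 9 tags in brain alone, and Pcdha2 and Pcdha6 with 6 in lung alone. In the beta group Pcdhb22 held 22 tags in lung and 2 in liver. Pcdhb15 held 10 tags in brain and 11 in lung, Pcdhb16 held 9, 3 and 5 in brain, lung and kidney, Pcdhb21 held 4 in brain and 9 in lung, and Pcdhb8 held 4 in brain and 7 in kidney. In the gamma group Pcdhgb6 held 9, 24, 4 and 4 tags in brain, lung, kidney and liver and Pcdhgb7 15, 15, 8 and 0, followed by Pcdhgc3. Pcdhga12 held 13 in brain and 2 in liver, and Pcdhga10 held 5, 6 and 3 in brain, lung and kidney. Pcdhgb6 was the only clustered gene start with tags in all 4 organs.

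Peak pairs were also formed in each library by itself. Brain had 12 of its 11291 pairs in the stretch (0.106%, 0.0608 to 0.186), the same share as with 2,700,000 cells. No pair of an organ lay in the alpha or beta group. Of the brain pairs, 4 were gamma pairs at Pcdhgb7, Pcdhga3, Pcdhga11 and Pcdhgb8. A brain pair also lay between the alpha and beta groups, within 12 bp of a site there, and the other 7 lay in Diaph1. Pairs were not thinned here, and several of those 7 lay close together, so they mark fewer places than pairs. Lung had 3 of 4517 pairs and kidney 1 of 4243, all in Diaph1, and liver had none of 1574. The library of 270,000 cells had 1 of 4296, at Pcdhgb8. With 2,700,000 cells there were 164 of 154803 (0.106%), with 32 in the alpha, 53 in the beta and 44 in the gamma group.

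Related genes elsewhere were counted in the same windows. Of 21 non-clustered protocadherins and large cadherins, the strand of 16 was known from the promoter table. With 2,700,000 cells 14 of these 16 starts held tags, and 2 (12.5%) held at least 20, a share near the 13.5% of all other genes. They were Pcdh15, of the hair cell tip link, with 149 and Fat4, a giant cadherin, with 117. The median of the 16 was 4.5 tags, against 41.5 at the clustered genes and 4 at all other genes. In brain 9 of the 16 held tags (background 40.4%). At least 2-fold higher in brain were 3 (background 23.4%) and at least 2-fold lower 6 (38.6%). Of 13 genes for CTCF, cohesin and known regulators of the clusters, 9 could be counted. Wiz, which encodes a zinc finger protein, held 107 tags with 2,700,000 cells and Smc3, a cohesin subunit, 63, and the other 7 held 2 to 17.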

How the data were processed

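CTCF ChIP-exo 5.0 was measured in 7 mouse libraries. The authors sequenced paired reads and deposited 1 peak list per library. Their methods describe a filter on multiply mapped reads and PCR duplicates for the yeast and human alignments, and whether it was used for mouse was not stated. The submitters' processing notes name bcl2fastq 2.16, BWA 0.7.9a and mm10. The deposited values are counts of tags per strand-specific peak of 21 bp, not normalized, with the standard deviation of the tag positions. The second column of the files names genetrack. The labels and the methods give different formaldehyde concentrations.

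From these counts, tags were summed by position. Gene positions came from RefSeq (GRCm38.p6, the assembly behind mm10), and strands from the promoter table, which held no gene of chromosome 18. Clustered genes were read towards higher coordinates. Pairs were formed from the strongest partners, outside 13 dense bins of 10 kb, the mitochondrial genome and unplaced sequences. The dense bins held at least 20 peaks in at least 6 libraries, and none lay in the stretch.

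No test was made, since each condition had 1 library. A value was called higher in brain at 2-fold the mean of the other organs and at least 2 tags. Intervals are 95% Wilson, exact Poisson or exact binomial intervals. Named were the 5 gene starts with most tags in the organs and with 2,700,000 cells in each group, the c-type genes, the 5 sites with most tags in each group or stretch, and up to 10 sites of at least 10 brain tags ranked by ratio. The members and lists were chosen with earlier results of these data known. Pairing and calls were tested on simulated data with equal depths and far more tags per site than most sites held in the organs. How calls behave at the low counts met here was therefore not tested. The computations used numpy 2.4.6, scipy 1.17.1, pandas 2.3.3 and matplotlib 3.10.9 under Python 3.11.15. Alternatives were other scalings, windows, pair distances and tag minimums, and leaving out each organ or the peaks of 1 position.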

Additional observations from a re-analysis of the deposited data

How the results depend on the processing

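One alternative, detection of sites without peaks of 1 position, was chosen after the data were seen. A scaled value or ratio counted as moved outside its counting interval, and a count of sites or gene starts beyond 1.5 times. Of the main values under the alternatives, 40 stayed and 49 moved. Scaled to 1,000,000 tags at sites, brain had 1036 tags in the stretch, lung 759, kidney 543, liver 477, and the cell libraries 846, 531 and 0 from most to fewest cells. Without peaks of 1 position lung had 728, kidney 134, liver 98.3 and the cell libraries 715, 226 and 0. By peaks in place of tags kidney had 338, liver 357 and the libraries of 2,700,000 and 270,000 cells 690 and 465. Lung exceeded brain without peaks of 1 position, where brain had 489.5. The cause was not tested.

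The ratio of brain to the mean of the other organs over the stretch moved to 1.75 per tags at sites, 2.07 at sites alone, 1.90 without the lung library and 1.31 without the liver library. In the alpha group it moved to 0.772 per tags at sites and 0.916 at sites alone, in the beta group likewise to 0.486 and 0.491, and to 0 (without peaks of 1 position) and 2.30 (without lung), and in the gamma group likewise to 2.95 and 4.05, and to 1.65 (without peaks of 1 position) and 1.66 (without lung). It was above 1 in the stretch and the gamma group under each alternative run, and on both sides of 1 in the other groups.

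Without peaks of 1 position brain had tags at 9 gene starts, lung at 4, kidney at 0, liver at 4 and the library of 270,000 cells at 6. Lung then detected 7 sites, kidney 3 and liver 3. At least 5 tags left 3 sites in kidney, 0 in liver and 5 with 270,000 cells, and windows of 100 bp left 4 in liver and 6 with 270,000 cells. Of 110 sites formed from pairs of all libraries, where a library's own pairs fix part of its count, brain detected 45, lung 33, kidney 19, liver 15 and the library of 270,000 cells 21. Counts at single sites are small in the organs, and a 0 can stand for an unlisted single tag. No paired analysis was possible because each condition has 1 library.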
